A study of Homo sapiens with 6 samples.

Results

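The urokinase and tissue factor systems were followed through 9 genes in PC3 cells treated with the peptide RSM3. They are the plasminogen activator genes PLAU and PLAT, the urokinase receptor gene PLAUR, the inhibitor genes SERPINE2 and SERPINB2, the tissue factor gene F3, its inhibitor gene TFPI with the relative TFPI2, and the membrane protease gene ST14. Each was taken by its symbol from the deposited table of 60545 genes, and all 9 of them passed the expression filter that left 15773 genes for testing. PC3 is an established human prostate cancer line from a bone metastasis. The 6 RNA sequencing libraries comprise 3 from RSM3-treated cells and 3 labelled Control, all from cultures kept in RPMI-1640 medium supplemented with fetal bovine serum and penicillin/streptomycin. The labels give no dose, duration or vehicle, and do not say whether replicates were separate cultures. The p-values therefore take their error from differences among these samples alone, and those differences may be technical.

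Plasminogen activators are secreted serine proteases that cut plasminogen into plasmin, a protease that degrades fibrin and matrix proteins. Urokinase works largely at the cell surface, bound to its receptor, and serpins block it by trapping the enzyme. Tissue factor is a membrane protein that binds factor VII and starts blood clotting, and TFPI blocks that complex. Tumour cells, prostate cancer cells among them, are known to use urokinase and its receptor in invasion.

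Transcripts of 3 of the 9 genes rose in RSM3-treated cells: PLAU, SERPINB2 and TFPI2. PLAU increased 2.04-fold, SERPINB2 2.08-fold from a low level, and TFPI2 1.30-fold. The 3 calls were not equally firm: in 15 other settings of the analysis PLAU passed in 15, TFPI2 in 11 and SERPINB2 in 6. SERPINB2 did not pass with limma voom. None of the 9 fell by edgeR, DESeq2 or limma voom, and at an unadjusted edgeR p under 0.05 there were 5 higher and 0 lower, a threshold reached by 9.94% of all genes tested as higher and 7.84% as lower. The other 6 did not pass the test (edgeR quasi-likelihood F-test, Benjamini-Hochberg adjusted p under 0.05 over all genes tested). Over all genes tested 4.20% were called, 3.09% as rises and 1.10% as falls. The median log2 fold change (RSM3 over Control) was 0.29 over the 9 genes and -0.00476 over all genes tested. In 4 of the 9 genes the RSM3 libraries all lay above the Control libraries, a separation in that direction seen in 12.8% of all genes tested. The plot of each gene in the 6 libraries shows these values.

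**Figure D1:**
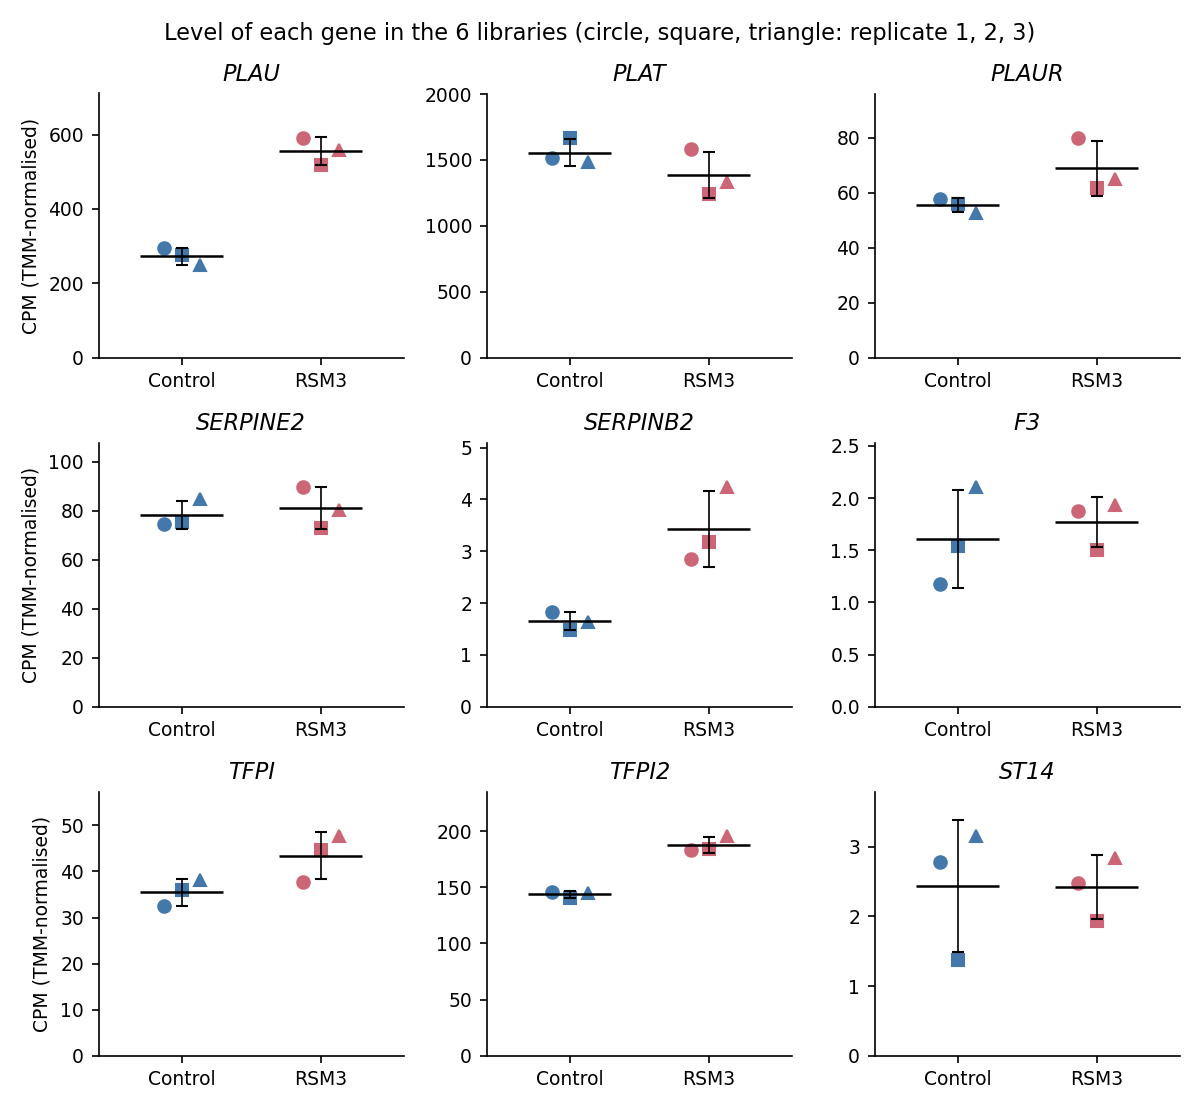
Level of each of the 9 genes in counts per 1000000 (CPM, TMM-normalised; axes start at 0) in 3 Control and 3 RSM3 libraries, with one symbol per library, the mean as a line and the SD as an error bar. PLAU sits at 248 to 294 CPM in Control and 517 to 592 CPM in RSM3, while the groups overlap for PLAT, SERPINE2, F3, TFPI and ST14.

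The libraries differed in ways that bear on these genes. Totals ran from 14091359 to 18594251 counts. RSM3 replicate 1 had the strongest trend with base composition: across genes, the Spearman correlation of its log2 deviation with GC content was 0.418. That correlation was 0.139 and 0.158 in Control replicates 1 and 2 and -0.205 in Control replicate 3. In RSM3 replicates 2 and 3 it was -0.321 and -0.289. Control replicates 1 and 2 stood apart by the tropomyosin gene TPM1, at 102 and 109 CPM against 29.4 to 31.5 CPM in the other 4. Results that end or begin to pass without one of these libraries are given beside each gene. The cells carried epithelial markers (summed KRT8, KRT18, KRT19, EPCAM and CDH1, 1138 to 1300 CPM in Control and 1027 to 1326 CPM in RSM3), and none of 10 leukocyte markers passed the filter, with CD3E and MS4A1 at 0 throughout. Endothelial markers, where 2 of 7 passed the filter, summed to 220 to 240 CPM in Control and 144 to 185 CPM in RSM3, nearly all from KDR and PECAM1. KDR stood at 124 to 216 CPM and PECAM1 at 19.3 to 26.2 CPM. Of the others on that list, VWF and CDH5 were at most 0.129 CPM, and TEK, CLDN5 and EMCN at most 0.456 CPM. Fibroblast markers, with 3 of 8 past the filter, summed to 98.5 to 120 CPM in Control and 74.9 to 102 CPM in RSM3. Most of that sum came from COL1A1, at 77.5 to 93.8 CPM in Control and 58.3 to 88.2 CPM in RSM3. PDGFRA (10.9 to 19.9 CPM) and COL3A1 (2.03 to 4.84 CPM) added to it, while DCN was at 0 throughout. The part of these lists in the results was not tested.

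Promoter sequence was searched for 5 motifs on both strands, in 250 bases before each start listed by RefSeq (GRCh38.p14). Windows were used for 7 of the 9 genes, 9 windows in all, and those of PLAT and ST14 were not analysed here. An AP-1 motif (TGANTCA) was found in 4 of the 7 genes, SERPINB2, TFPI2, PLAUR and F3, and in 6.57% of 35116 windows of all genes. For every motif the count is by gene and the share is by window, so these are not like measures. A match is a description of letters, and no binding was measured. The stretches of 30 bases around these matches are shown because the set holds both genes that rose and genes that did not pass the test, with the motif in capitals.
SERPINB2 (chr18:63887592-63887621, plus strand): gagtaaaatgtTGAATCActcaaaggacac
TFPI2 (chr7:93890822-93890851, minus strand): gtccccgtgcaTGAATCAgccacccctcag
PLAUR (chr19:43670337-43670366, minus strand): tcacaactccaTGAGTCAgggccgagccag
F3 (chr1:94541958-94541987, minus strand): gcggtTGAATCActggggTGAGTCAtccct

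SERPINB2 carried its match 102 to 96 bases before the start, and F3 carried 2, at 223 to 217 and 210 to 204 bases. PLAU held no AP-1 match in either of its windows, and sequence outside these windows was not searched. Its downstream window held 3 SP1 motifs (GGGCGG), a motif present in 42.6% of all windows and in 4 of the 7 genes. TFPI2 also held the single match to the NF-kB consensus among these genes, 152 to 143 bases before the start, a motif in 5.21% of all windows. The SP1 stretch of PLAU, with its first 2 matches, and the NF-kB stretch of TFPI2 are shown as further matches in genes that rose. Both stretches overlap annotated exons. TFPI2 also held 2 SP1 motifs, 114 to 109 and 65 to 60 bases before the start, which are not printed.
PLAU (chr10:73911062-73911091, plus strand): agccGGGCGGgagagggagGGGCGGcgccg
TFPI2 (chr7:93890886-93890915, minus strand): tcaacttggcGGGGAATTCCtctccctctt

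Longer context is shown for SERPINB2 and F3, whose windows hold both an AP-1 motif and a TATA motif (TATAAA, in 10.7% of all windows). Each stretch stops before the first annotated exon met in its window. That of SERPINB2 lies inside the annotated span of the gene (63871692 to 63903890), and that of F3 lies upstream of its gene. The SERPINB2 stretch shows both motifs in capitals. The F3 stretch shows its AP-1 and SP1 motifs, and its TATA motif lies past the end of the printed stretch. The TEAD motif (GGAATG, in 11.9% of all windows) was found in none of the 7 genes, and TFPI held no match to any of the 5 motifs.
SERPINB2 (chr18:63887455-63887699, plus strand): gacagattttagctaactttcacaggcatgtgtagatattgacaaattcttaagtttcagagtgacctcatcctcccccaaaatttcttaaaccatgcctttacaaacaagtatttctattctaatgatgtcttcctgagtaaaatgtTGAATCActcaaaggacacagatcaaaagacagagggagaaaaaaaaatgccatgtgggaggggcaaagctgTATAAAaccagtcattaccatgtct
F3 (chr1:94541801-94542009, minus strand): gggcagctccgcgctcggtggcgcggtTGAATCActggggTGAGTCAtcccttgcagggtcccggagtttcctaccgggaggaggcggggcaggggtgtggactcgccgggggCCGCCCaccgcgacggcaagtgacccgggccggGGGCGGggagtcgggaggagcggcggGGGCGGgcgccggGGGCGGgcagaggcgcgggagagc

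PLAU, which encodes urokinase (ENSG00000122861, chromosome 10, 73909177 to 73917497, GRCh38, plus strand), stood at 294, 276 and 248 CPM in Control replicates 1, 2 and 3. In RSM3 replicates 1, 2 and 3 it stood at 592, 517 and 558 CPM. The groups did not overlap, and the lowest RSM3 library lay well above the highest Control library. The log2 fold change was 1.03 ± 0.09 (SE; 95% interval 0.84 to 1.21; edgeR adjusted p = 2.83e-05). PLAU passed in all 15 other settings tried, with log2 fold changes of 0.96 to 1.17, the highest with a term for Control replicates 1 and 2, a fit that compares RSM3 with Control replicate 3 alone (edgeR adjusted p = 0.00244). The gene overlaps C10orf55 on the opposite strand, which held 13 to 40 counts per library against 4697 to 8662 for PLAU. The libraries mark strand, but the strand setting of the counting is not given in the sources used here, so reads of the pair may not be fully separated.

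PLAT, which encodes tissue-type plasminogen activator (ENSG00000104368, chromosome 8, 42175233 to 42207724, minus strand), was the most abundant of the 9 genes. It stood at 1511, 1670 and 1485 CPM in Control and at 1583, 1240 and 1333 CPM in RSM3. RSM3 replicates 2 and 3 lay below all Control libraries and RSM3 replicate 1 lay among them. Its change over Control was -0.17 ± 0.10 on the log2 scale (95% interval -0.37 to 0.04; edgeR adjusted p = 0.41). Without RSM3 replicate 1, the library with the strongest GC trend, PLAT passed as a fall (log2 fold change -0.27, edgeR adjusted p = 0.00069). It did not pass in any of the other 14 settings.

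The balance between both activators was read as a ratio within each library, which does not depend on library scaling. Counts per kilobase of annotated exon of PLAT over PLAU were 2.29, 2.7 and 2.67 in Control and 1.19, 1.07 and 1.06 in RSM3. All RSM3 libraries lay below all Control libraries, and the mean ratio was 2.30-fold lower (log2 difference -1.20; exact two-sided permutation, p = 0.1, which is as low as 3 samples against 3 can reach). PLAU thus made up 27.0% to 30.4% of the summed PLAT and PLAU level per length in Control and 45.6% to 48.4% in RSM3. These shifts mainly restate the rise of PLAU (log2 fold change 1.03), since PLAT did not pass (-0.17). The level of the ratio, and with it the PLAU share, rests on the length used. With the longest annotated transcript of each gene the ratio was 3.94 to 4.65 in Control and 1.83 to 2.05 in RSM3. The log2 difference between groups is the same with either length.

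**Figure D2:**
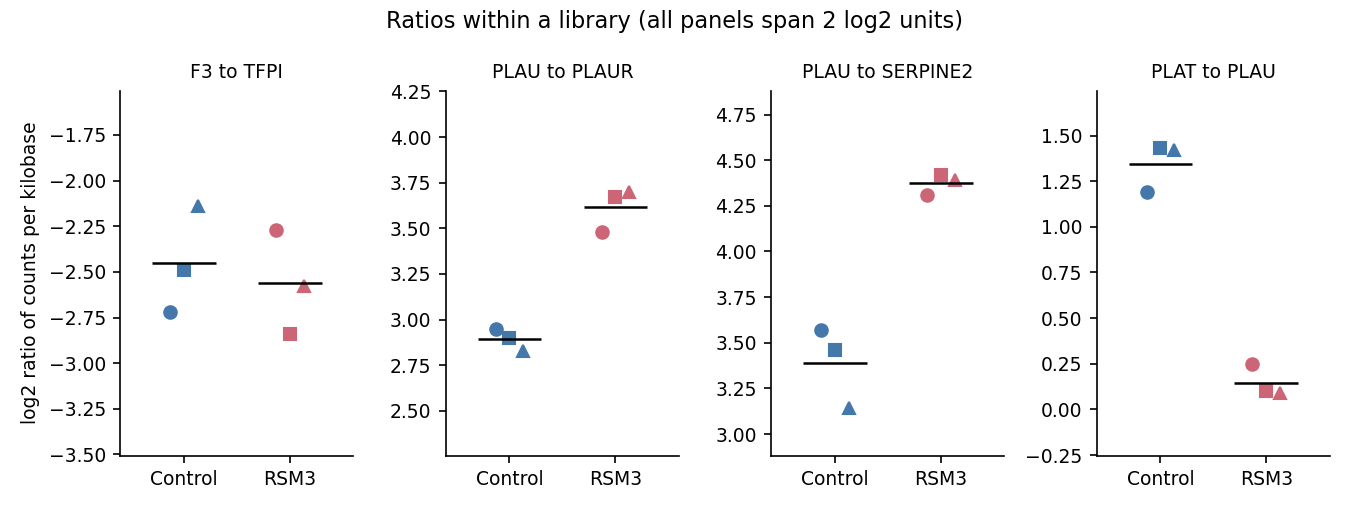
Log2 ratio of counts per kilobase of exon between 4 pairs of genes in each library (symbols: replicates; lines: group means; each panel spans 2 log2 units on its own range). PLAT to PLAU falls from 1.35 to 0.15 and both ratios with PLAU on top are higher in every RSM3 library, while F3 to TFPI overlaps between groups. The ratios that moved all hold PLAU (log2 fold change 1.03), and their other genes did not pass the test.

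PLAUR, which encodes the membrane receptor for urokinase (ENSG00000011422, chromosome 19, 43646095 to 43670547, minus strand), stood at 57.7, 55.9 and 52.6 CPM in Control and 80.0, 61.5 and 64.8 CPM in RSM3. Every RSM3 library was above every Control library, and RSM3 replicate 1 was the highest of all. Its log2 fold change was 0.31 ± 0.11 (95% interval 0.08 to 0.54; edgeR adjusted p = 0.132), so PLAUR did not pass. It passed after a correction for GC content and exonic length (log2 fold change 0.33, edgeR adjusted p = 0.00822). Its log2 fold change without RSM3 replicate 1 was 0.19 (edgeR adjusted p = 0.0969). The ratio of PLAU to PLAUR per kilobase was 7.70, 7.46 and 7.11 in Control and 11.2, 12.7 and 13 in RSM3, a 1.65-fold rise with no overlap between groups (exact permutation test, p = 0.1).

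SERPINB2, which encodes plasminogen activator inhibitor-2, a serpin found mostly inside cells (ENSG00000197632, chromosome 18, 63871692 to 63903890, plus strand), was scarce. Its 31, 26 and 31 counts in Control corresponded to 1.83, 1.48 and 1.63 CPM. The RSM3 libraries held 38, 51 and 66 counts, or 2.86, 3.18 and 4.25 CPM. The groups did not overlap, and the log2 fold change was 1.06 ± 0.27 (95% interval 0.48 to 1.64; edgeR adjusted p = 0.0435). That call lay close to the threshold and held in 6 of 15 other settings. It was lost with library size alone, with limma voom, with the replicate block (edgeR adjusted p = 0.0614), with Control replicates 1 and 2 given a term of their own, and on dropping any single library except RSM3 replicate 1, with log2 fold changes of 0.88 to 1.14 in these 9 settings.

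SERPINE2, which encodes protease nexin-1, a secreted inhibitor of thrombin, urokinase and other proteases (ENSG00000135919, chromosome 2, 223975112 to 224039319, minus strand), stood at 74.4, 75.4 and 84.8 CPM in Control. The RSM3 libraries held 89.9, 73.0 and 80.4 CPM, with RSM3 replicate 1 above the Control range, RSM3 replicate 2 below it and RSM3 replicate 3 within it. On the log2 scale the change was 0.05 ± 0.10 (95% interval -0.16 to 0.26; edgeR adjusted p = 0.839), an interval that holds no change as large as that of PLAU. Its sign turned when libraries were scaled by size without TMM, with Control replicates 1 and 2 given their own term, and without RSM3 replicate 1. The PLAU to SERPINE2 ratio per kilobase was 11.9, 11 and 8.80 in Control and 19.8, 21.3 and 20.9 in RSM3, a 1.97-fold rise (exact permutation test, p = 0.1). All RSM3 libraries lay above all Control libraries.

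F3, which encodes tissue factor (ENSG00000117525, chromosome 1, 94529225 to 94541800, minus strand), held 20, 27 and 40 counts in Control and 25, 24 and 30 in RSM3. These correspond to 1.18, 1.54 and 2.11 CPM in Control and 1.88, 1.5 and 1.93 CPM in RSM3, where the RSM3 values lay inside the Control range. For F3 the log2 fold change was 0.13 ± 0.33 (edgeR adjusted p = 0.891). The 95% interval ran from -0.59 to 0.84 and includes no change as well as a 1.79-fold rise.

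TFPI, which encodes the inhibitor of the tissue factor complex (ENSG00000003436, chromosome 2, 187464230 to 187565760, minus strand), stood at 32.4, 35.9 and 38.2 CPM in Control and 37.8, 44.6 and 47.8 CPM in RSM3. RSM3 replicate 1 overlapped the Control range and the other RSM3 libraries lay above it. The log2 fold change was 0.29 ± 0.11 (95% interval 0.05 to 0.53; edgeR adjusted p = 0.179). TFPI passed without RSM3 replicate 1 (log2 fold change 0.38, edgeR adjusted p = 0.00328) and after the GC and length correction (0.31, adjusted p = 0.0266). The ratio of F3 to TFPI per kilobase ran from 0.152 to 0.227 in Control and from 0.140 to 0.207 in RSM3, with overlapping groups (log2 difference -0.12; exact permutation test, p = 0.6).

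TFPI2, which encodes a secreted Kunitz-type inhibitor that acts on plasmin, trypsin and other proteases (ENSG00000105825, chromosome 7, 93885396 to 93890991, minus strand), stood at 146, 140 and 145 CPM in Control. In RSM3 it stood at 183, 184 and 196 CPM. The libraries of each group lay close together and the groups were apart. The log2 fold change was 0.38 ± 0.07 (95% interval 0.22 to 0.54; edgeR adjusted p = 0.0107). It was called in 11 of 15 other settings and lost its call on leaving out Control replicate 1, Control replicate 2 or RSM3 replicate 3 (edgeR adjusted p of 0.0713, 0.0961 and 0.0686) and once Control replicates 1 and 2 had a term of their own (edgeR adjusted p = 0.232), with log2 fold changes of 0.35 to 0.39.

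ST14, which encodes matriptase, a membrane protease of epithelial cells that can activate pro-urokinase (ENSG00000149418, chromosome 11, 130159562 to 130210376, plus strand), held 47, 24 and 60 counts in Control and 33, 31 and 44 in RSM3. The groups overlapped, with 1.37 to 3.16 CPM in Control against 1.93 to 2.84 CPM in RSM3. The log2 fold change was -0.02 ± 0.33 (95% interval -0.72 to 0.69; edgeR adjusted p = 0.988), an interval that includes no change as well as a 1.61-fold rise. The plot of fold changes with their intervals sets this width beside that of the abundant genes.

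**Figure D3:**
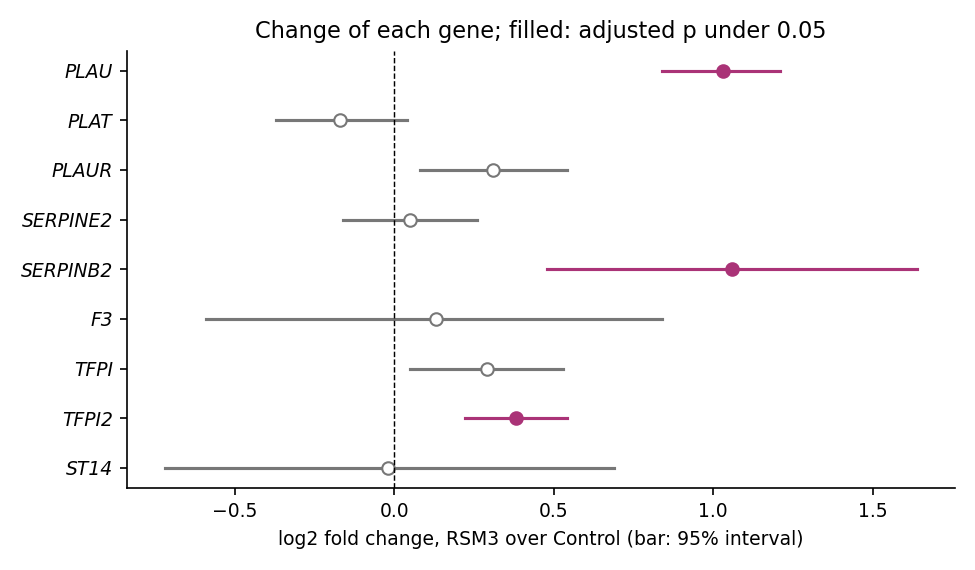
Log2 fold change (RSM3 over Control) of the 9 genes with 95% intervals from the edgeR fit; filled points passed at an adjusted p under 0.05. PLAU (1.03) and TFPI2 (0.38) have narrow intervals above 0, SERPINB2 (1.06) a wide one, and the intervals of PLAT, SERPINE2, F3 and ST14 include 0.

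The order of levels per kilobase of annotated exon was PLAT, PLAU, TFPI2, PLAUR, SERPINE2 and TFPI in Control, with means of 235, 92.4, 53.5, 12.4, 8.80 and 3.03 CPM per kilobase. SERPINB2, ST14 and F3 followed at 0.600, 0.560 and 0.560 CPM per kilobase, and these 3 overlapped as neighbours, while no other neighbours did. In RSM3 the order of the first 6 was the same, but PLAT (187 to 239 CPM per kilobase) and PLAU (175 to 201) overlapped. That overlap rests on the length used: with the longest annotated transcript, PLAT stood at 1.83 to 2.05 times PLAU in the RSM3 libraries. SERPINB2, at 1.04 to 1.55 CPM per kilobase, then lay above F3 and ST14, which overlapped. PLAT lay above 99.5% of the genes tested in level per kilobase in Control, PLAU above 98.1% in Control and 99.2% in RSM3, and TFPI2 above 95.9% and 96.9%. By contrast, F3 and ST14 each lay above 13% of tested genes in Control.

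Other genes, related to those above by function or family, were read from 5 lists with 103 genes, of which 50 passed the filter. Of these 50, 5 rose and none fell, beside 3.09% rises and 1.10% falls over all genes tested, and their median log2 fold change was 0.01. At an unadjusted edgeR p under 0.05, 11 were higher and 3 lower, beside 9.94% and 7.84% of all genes tested. DESeq2 called 7 rises, limma voom 6, and neither a fall, while 1 gene was called lower with the GC and length correction and 4 without RSM3 replicate 1. Among inhibitors, receptors and partners of the activators, 3 of 13 tested genes rose and 10 did not pass (median 0.02). ANXA2 and S100A10, whose products form a cell-surface complex that binds plasminogen and its activator, rose from 1944 ± 86.5 to 2637 ± 253 CPM and from 157 ± 4.15 to 216 ± 9.23 CPM (SD, n = 3; edgeR adjusted p = 0.0124 and 0.00353).

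THBS1, which encodes thrombospondin-1, a matrix protein that binds components of the urokinase system, rose from 56.7 ± 3.13 to 75.6 ± 6.61 CPM (edgeR adjusted p = 0.0233). The calls of ANXA2 and THBS1 were lost without Control replicate 1 or Control replicate 2, that of THBS1 also without RSM3 replicate 2, and those of S100A10, ANXA2 and THBS1 with the term for Control replicates 1 and 2. Of 12 tested membrane proteases with their inhibitors and substrates, 2 rose and 10 did not pass (median 0.01). TMPRSS2, a membrane serine protease gene of prostate epithelium, stood at 47.8, 51.1 and 50.5 CPM in Control and 72.2, 75.9 and 76.1 CPM in RSM3, a rise of 0.59 ± 0.08 on the log2 scale (edgeR adjusted p = 0.0015). MET, which encodes the receptor for hepatocyte growth factor, a ligand that matriptase can activate, rose from 570 ± 45.9 to 782 ± 37.5 CPM (edgeR adjusted p = 0.00718). The call of MET was lost without Control replicate 1 or 2, and those of MET and TMPRSS2 with the term for these libraries.

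The other lists gave no call. None of 12 tested coagulation and protease-activated receptor genes passed by edgeR, DESeq2 or limma voom (median -0.06), and at an unadjusted edgeR p under 0.05 there were 2 higher and 2 lower, where 17.8% of all genes tested reached that threshold in either direction. F2RL1, which encodes the receptor PAR-2 that matriptase and tissue factor complexes can cleave, stood at 282, 261 and 265 CPM in Control and 211, 219 and 248 CPM in RSM3. Its groups did not overlap, with RSM3 lower, and it did not pass over all genes (log2 fold change -0.25 ± 0.08, edgeR adjusted p = 0.112), although it passed without RSM3 replicate 1 (-0.21, adjusted p = 0.0137) and after the GC and length correction (-0.26, adjusted p = 0.013). LMAN1, a cargo receptor for clotting factors, had 326 ± 15.0 CPM in Control against 311 ± 48.3 CPM in RSM3. None of 6 clade B serpins, the family of SERPINB2, passed by edgeR (median 0.08; 1 higher at an unadjusted p under 0.05, beside 9.94% of all genes tested, 1 rise by DESeq2 and 0 by limma voom), SERPINB6 standing at 121 ± 4.51 and 135 ± 1.23 CPM and SERPINB7 at 93.2 ± 7.15 and 104 ± 4.98 CPM in Control and RSM3. None of 7 genes with a Ly6 or uPAR domain, the family of PLAUR, passed by edgeR, DESeq2 or limma voom (median 0.07; 1 higher at an unadjusted p under 0.05, beside the same 9.94%), with CD59 at 873 ± 81.0 and 913 ± 59.0 CPM and LY6E at 53.5 ± 4.30 and 59.7 ± 8.71 CPM.

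**Figure D4:**
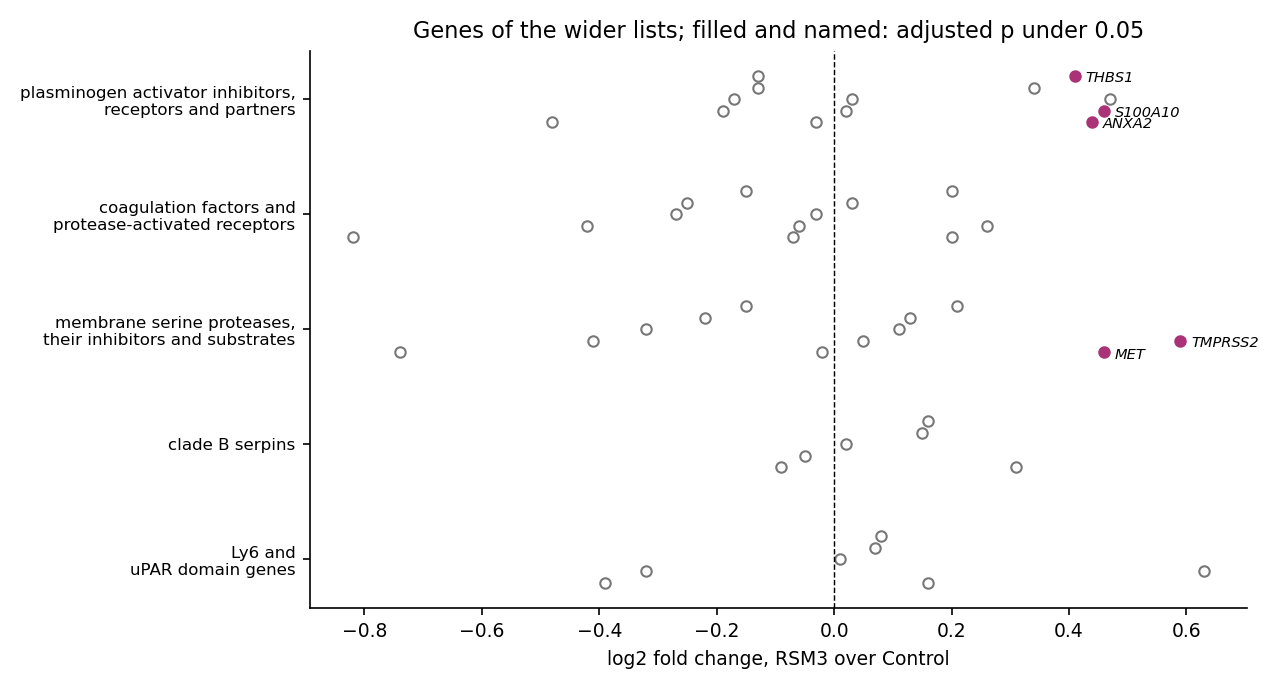
Log2 fold change (RSM3 over Control) of the 50 tested genes of the 5 wider lists, one row per list, points spread vertically for visibility only; filled, named points passed at an adjusted p under 0.05. All 5 genes that passed rose, from THBS1 at 0.41 to TMPRSS2 at 0.59.

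The protein-coding genes whose profiles lay nearest to each gene that rose were found by the root mean square difference of log2 deviations over the 6 libraries, among genes whose mean reached 5 CPM. Nearest to PLAU were NFKB2, which encodes an NF-kB subunit, DENND3 and SHISA3, at 0.0784, 0.0886 and 0.0888 log2 units. NFKB2 stood at 49.6, 48.7 and 41.3 CPM in Control and 117, 91.0 and 96.5 CPM in RSM3. Like PLAU it was highest in RSM3 replicate 1, the library with the strongest GC trend (Spearman correlation 0.418). The part of GC content in this likeness was not tested. Nearest to SERPINB2 were the kinesin gene KIF23, NAV3 and COBLL1, at 0.0827, 0.117 and 0.134 log2 units, and nearest to TFPI2 were TTC21B, NT5E and LRRFIP2, at 0.0207, 0.0224 and 0.0269. KIF23 stood highest in RSM3 replicate 3 (71.5 CPM), as did SERPINB2. These distances are descriptions over 6 libraries in 2 groups and carry no test.

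**Figure D5:**
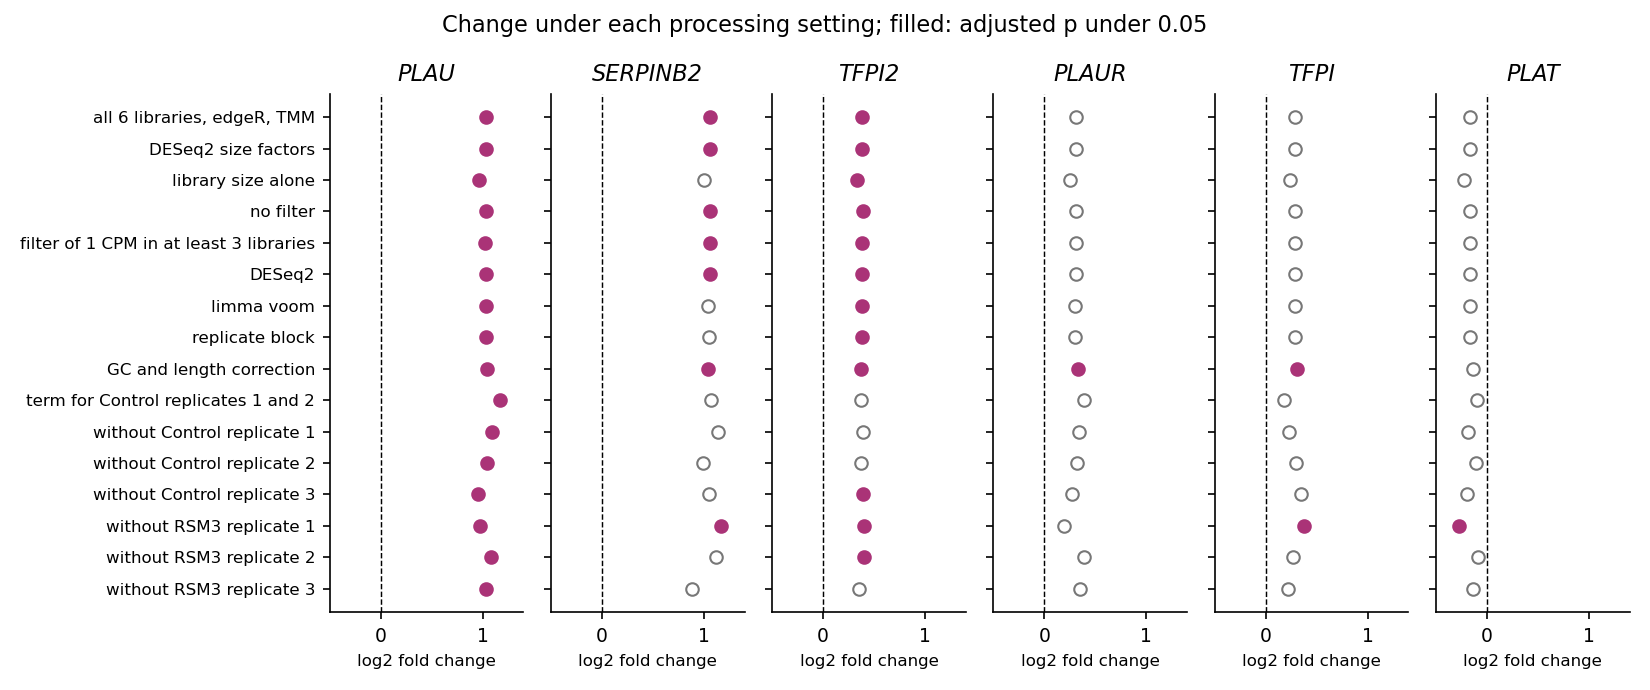
Log2 fold change (RSM3 over Control) of 6 genes under the fit reported and 15 other settings, one row per setting; filled points passed at an adjusted p under 0.05. PLAU is filled in every row, SERPINB2 in 6 and TFPI2 in 11 of the 15 other settings, and PLAUR, TFPI and PLAT in 1, 2 and 1 of them.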

How the data were processed

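RNA was sequenced from 6 libraries of PC3 cells, 3 RSM3 and 3 Control. Libraries were prepared from polyadenylated RNA with dUTP strand marking and read from both ends, per the labels' protocols. Tools named in the submitters' processing notes, without roles, are STAR (2.7.1a), fastp, featureCounts and DESeq2, with the build hg38. The authors deposited raw read counts per gene, 1 column per sample, with no normalisation. Not given in the sources used here: annotation release, strand setting, handling of multiply mapped reads.

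Genes were filtered with filterByExpr (minimum count 10) and tested with edgeR (4.0.16, R 4.3.3) by the quasi-likelihood F-test with TMM factors (0.944 to 1.02), robust dispersions and no covariate. P-values were adjusted over all genes tested. Standard errors and 95% intervals came from the F statistic. CPM is TMM-normalised. Lengths, coordinates and GC content came from GENCODE 29 (GRCh38). Per-kilobase levels used the union of annotated exons, and ratios added 0.5 counts. Scripts were tested on simulated counts. Replicate pairs differed by more than sampling noise (chi-square per degree of freedom 3.20 to 18.0), so none were merged. Intervals cover spread between these libraries.

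The 9 genes, the lists and the tests were chosen with earlier results of these data known. All 9 genes are named; 1 further gene of the wider lists is not reported here and is left out of their counts. From each list, up to 4 called genes with the smallest adjusted p were named, or the 2 with the highest mean CPM where none passed, and for each called gene the 3 nearest profiles. Alternatives were limma voom (3.58.1), DESeq2 (1.42.0) and its size factors, scaling by library size, testing unfiltered genes, a filter at 1 CPM in 3 or more libraries, a replicate block, a GC and length correction (loess, span 0.5, degree 2), a term for Control replicates 1 and 2, and leaving out each library. The longest-transcript length was added after the data were seen. Promoters came from RefSeq (GRCh38.p14).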

Additional observations from a re-analysis of the deposited data

How the results depend on the processing

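Of the 9 genes 3 were called. There were 5 calls after the GC and length correction, 1 where Control replicates 1 and 2 had a term of their own, and 1 to 5 when 1 library was left out (5, of which 4 were rises, without RSM3 replicate 1). The 662 calls over all genes became 1083 without a filter, 1628 after that correction, 118 with the term for these Control libraries and 214 to 2393 with 1 library left out. Library size alone gave 308 rises and 254 falls. The 5 calls in the wider lists became 8 without a filter, 8 after that correction, 0 by edgeR with the term for these libraries (10 at an unadjusted p under 0.05) and 2 to 12 with 1 library left out. The direction of values that had not passed turned in some settings. SERPINE2 went to -0.01 (library size alone), -0.06 (that term) and -0.03 to 0.13 with 1 library left out, F3 to -0.25 (that term) and -0.05 to 0.37 with 1 library left out, ST14 to 0.05 (limma voom), 0.03 (replicate block), 0.01 (GC and length correction) and -0.30 to 0.22 with 1 library left out, LMAN1 from -0.13 to 0.06 with 1 library left out, and CD59 to -0.07 (that term). The cause was not tested. The ratios kept their values with other pseudocounts; with 1 library left out, the log2 difference was -0.26 to 0.04 for F3 to TFPI, 0.68 to 0.79 for PLAU to PLAUR, 0.85 to 1.07 for PLAU to SERPINE2 and -1.28 to -1.16 for PLAT to PLAU.

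The titles number the replicates of both groups 1 to 3, but same-numbered samples did not deviate together (correlations of 0.0302, -0.0249 and 0.0444). With the replicate block 653 genes and 2 of the 9 were called, SERPINB2 no longer (adjusted p = 0.0614). F3, ST14 and SERPINB2 had the fewest counts of the 9 genes, 20 to 66 per library, and so the least precision.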
